A study of Mus musculus with 2 samples.

Results

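Mir33, Mir103-1, Mir103-2 and Mir107 are microRNA hairpins that lie inside genes of cholesterol and coenzyme A metabolism, and their levels were read from microRNA sequencing of mouse adrenal gland. They were taken by name, as the hairpin hosted by Srebf2 and the miR-103 and miR-107 hairpins hosted by Pank genes. The rule itself uses no measured value, but the members were chosen with earlier results of these data known. The hairpins are 4 of the 2202 annotated microRNA genes counted. Adrenal glands were taken at 25 days of age from males of B6CASTF1/J, an F1 cross between the C57BL/6J and CAST/EiJ strains. Neither treatment nor a second group was part of the design, so the 1 group has 2 biological replicates and nothing to be set against. The animals carry different numbers in the labels but a common donor entry, so an SD describes the spread of these libraries alone and may be technical. In whole tissue, fewer cells that make a microRNA and less of it per cell cannot be told apart.

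Srebf2 encodes SREBP2, the transcription factor that switches on cholesterol synthesis and uptake when sterols run low. The microRNA in its intron, miR-33, is known for repressing Abca1, the transporter that exports cholesterol from cells. Pank1, Pank2 and Pank3 encode pantothenate kinases, which catalyse the first committed step of coenzyme A synthesis. Their introns hold the hairpins of the closely related miR-103 and miR-107, which are known for acting on insulin sensitivity and lipid handling. The adrenal cortex makes steroid hormones from cholesterol, much of it taken up from lipoproteins through Scarb1 in mice. A microRNA hairpin is cut into a 5p and a 3p arm, and bases 2 to 8 of the mature arm, the seed, pair with target messages.

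The mature sequences are shown because they decide which hairpins a read can be assigned to. They are RefSeq sequences of build GRCm38.p6, found for all 4 hairpins, with the seed in capitals.
mmu-miR-33-5p: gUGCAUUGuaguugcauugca
mmu-miR-33-3p: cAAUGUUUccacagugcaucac
mmu-miR-103-3p, in both Mir103-1 and Mir103-2: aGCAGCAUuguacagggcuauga
mmu-miR-107-3p: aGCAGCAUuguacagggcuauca
mmu-miR-103-1-5p: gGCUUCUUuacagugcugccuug
mmu-miR-103-2-5p: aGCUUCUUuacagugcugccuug
mmu-miR-107-5p: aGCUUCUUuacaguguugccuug

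Both arms of Mir33 had seeds that no other RefSeq mouse mature microRNA carried. The 3p arms of the Pank hairpins shared 1 seed, held by miR-103-3p and miR-107-3p alone, and their 5p arms shared another. Counted from 1 at the 5′ end, with the base of the first-named microRNA first, miR-103-3p and miR-107-3p differed by the single substitution G22C, outside the seed. Among the 5p arms, miR-103-2-5p differed from miR-103-1-5p by A1G and from miR-107-5p by C16U. The longest run common to miR-33-5p and miR-107-3p was GCAUUGUA, at bases 3 to 10 of miR-33-5p and bases 5 to 12 of miR-107-3p. The run falls at different distances from the 5′ end, so the seeds of miR-33-5p and miR-107-3p differ.

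The 4 hairpins are shown whole because the stretches that the Pank hairpins have in common, in capitals, fall on the mature arms. Capitals mark every base that lies in a 20-base window found in another GENCODE M21 transcript on either strand.
Mir33, chr15:82198122-82198190, plus strand: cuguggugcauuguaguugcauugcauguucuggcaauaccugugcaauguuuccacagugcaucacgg
Mir103-1, chr11:35782396-35782481, plus strand: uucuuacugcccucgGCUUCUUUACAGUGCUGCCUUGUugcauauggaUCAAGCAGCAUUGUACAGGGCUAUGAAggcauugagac
Mir103-2, chr2:131288052-131288137, plus strand: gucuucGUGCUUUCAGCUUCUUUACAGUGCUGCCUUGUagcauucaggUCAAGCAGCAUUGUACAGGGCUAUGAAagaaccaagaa
Mir107, chr19:34820687-34820773, minus strand: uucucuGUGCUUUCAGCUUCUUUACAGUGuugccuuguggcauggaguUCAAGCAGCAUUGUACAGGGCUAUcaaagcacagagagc

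Mir33 had no such window among its 50. Shared windows numbered 12 of 67 in Mir103-1, 16 of 67 in Mir103-2 and 9 of 68 in Mir107, and all were shared among these 3 hairpins. Over the 86 aligned positions, Mir103-1 and Mir103-2 were identical at 69, and Mir103-2 and Mir107 at 73. The longest run common to Mir103-1 and Mir103-2, 27 bases at positions 49 to 75, contains all 23 bases of miR-103-3p, which lies at positions 52 to 74. A read that lies wholly inside that run matches both hairpins equally well. Mir107 shares positions 49 to 72 with both, so a 3p read is particular to Mir107 only where it reaches position 73, which is base 22 of miR-107-3p. The deposited tables set reads mapped to several places apart from the gene counts, so a read that matched several of these hairpins equally well is in no gene's count. How many reads of these microRNAs were lost in this way was not tested.

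**Figure D1:**
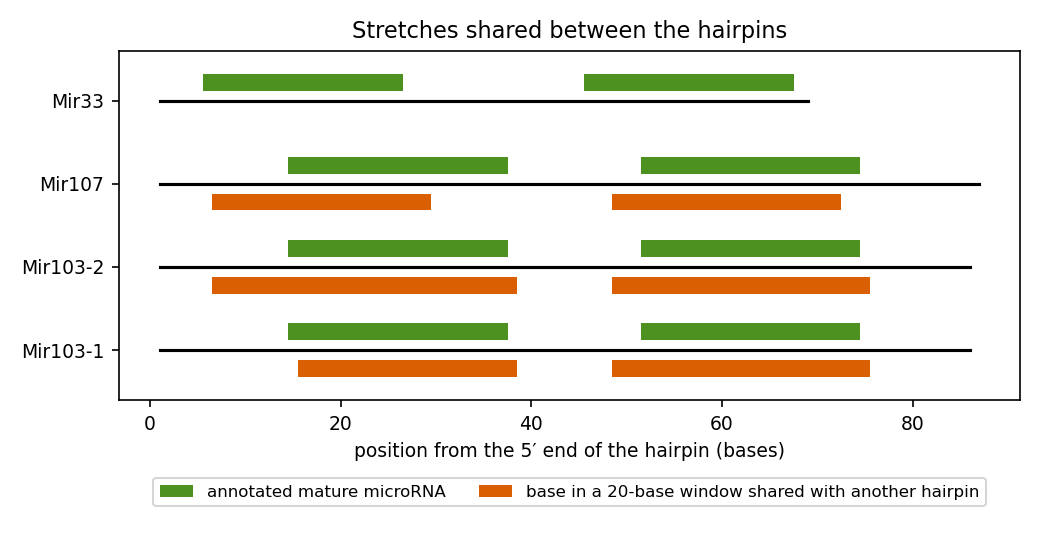
The map draws each hairpin as a line from its 5′ end, with position in bases on the horizontal axis, its annotated mature microRNAs in green above and the bases in shared 20-base windows in orange below. The orange block of the 3p arm covers the whole mature microRNA of Mir103-1 and Mir103-2 and stops at base 72 in Mir107, and Mir33 has none.

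All 4 hairpins were intronic and ran in the direction of their host gene, and GENCODE M21 placed no gene on the opposite strand at any of them. Mir33 (ENSMUSG00000065465.1) sits in intron 16 of the longest Srebf2 transcript, which has 19 exons, 335 bases after the exon before it. The Pank hairpins had matching places: Mir103-1 (ENSMUSG00000065553.1) in Pank3, Mir103-2 (ENSMUSG00000065563.1) in Pank2 and Mir107 (ENSMUSG00000065594.1) in Pank1 each occupied intron 5 of the longest host transcript, which has 7 exons in all 3 genes. Longest is by genomic span among transcripts that contain the hairpin, and intron numbers differ in others. There Mir103-2 lies in intron 2, 3, 5 or 7 of Pank2, Mir107 in intron 4 or 5 of Pank1, and Mir33 in intron 3 or 17 of Srebf2. In the longest transcripts, distances from the upstream exon were 688 bases for Mir103-1, 454 for Mir103-2 and 326 for Mir107. Each of these 4 host genes held 1 annotated microRNA gene on its strand, and Pank4 held 0. Srebf1, the relative of Srebf2 whose human counterpart hosts a second miR-33 hairpin, held Mir6921 and Mir6922, with 3 sense counts in all in each library.

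Replicate 2 gave 4541373 sense counts on microRNA genes from 10284575 input reads, and replicate 1 gave 3588361 from 8666085. Levels are sense counts per 1000000 of these totals (CPM), and 3 counts were worth 0.661 CPM in replicate 2 and 0.836 CPM in replicate 1. Reads mapped to several places made up 27% of input in replicate 2 and 31.6% in replicate 1. The libraries also differed in hairpins of other organs. The 5 liver hairpins summed to 198995 CPM in replicate 2 and 952 CPM in replicate 1, with Mir122 alone at 19.8% and 0.0892% of sense counts. The 8 striated muscle hairpins, led by Mir206, summed to 1.32 CPM in replicate 2 and 1006 CPM in replicate 1, and Mir133a-2 was at 0 in both. Of the neuroendocrine markers, Mir375 and Mir7b were matched by name and summed to 33088 CPM in replicate 2 and 39064 CPM in replicate 1, while 5 of 6 neuron hairpins were at 0 in both libraries. No list held a microRNA that defines adrenal cortex. The part of liver or muscle RNA in the levels of the 4 hairpins was not tested.

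Mir107 was by far the highest of the hairpins, and it was the one whose level moved least between the libraries. It had 11468 counts in replicate 2 and 9437 in replicate 1, that is 2525 CPM and 2630 CPM. The mean was 2578 CPM ± 74 (SD, n = 2), or 0.258% of all sense counts. By mean level it stood at rank 44 of 352 detected genes, those with at least 10 counts in both libraries.

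Mir103-2 and Mir33 followed, about 2 orders of magnitude lower. Mir103-2 had 133 counts in replicate 2 and 71 in replicate 1, which is 29.3 CPM (24.5 to 34.7) and 19.8 CPM (15.5 to 25.0), with exact 95% Clopper-Pearson intervals. Its mean was 24.5 CPM ± 6.72 (SD, n = 2). Mir33, the cholesterol gene's hairpin, had 102 counts in replicate 2 and 56 in replicate 1, which is 22.5 CPM (18.3 to 27.3) and 15.6 CPM (11.8 to 20.3). Its mean was 19.0 CPM ± 4.85 (SD, n = 2). In both hairpins the higher library was replicate 2. Gene counts do not separate the arms, so the part of miR-33-5p and miR-33-3p in the Mir33 counts is not known.

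Mir103-1 was the lowest, with 18 counts in replicate 2 and 22 in replicate 1. These are 3.96 CPM (2.35 to 6.26) and 6.13 CPM (3.84 to 9.28), whose intervals overlap. The mean was 5.05 CPM ± 1.53 (SD, n = 2). The intervals and floors reflect counting error alone, because PCR copies of a molecule were not told apart.

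**Figure D2:**
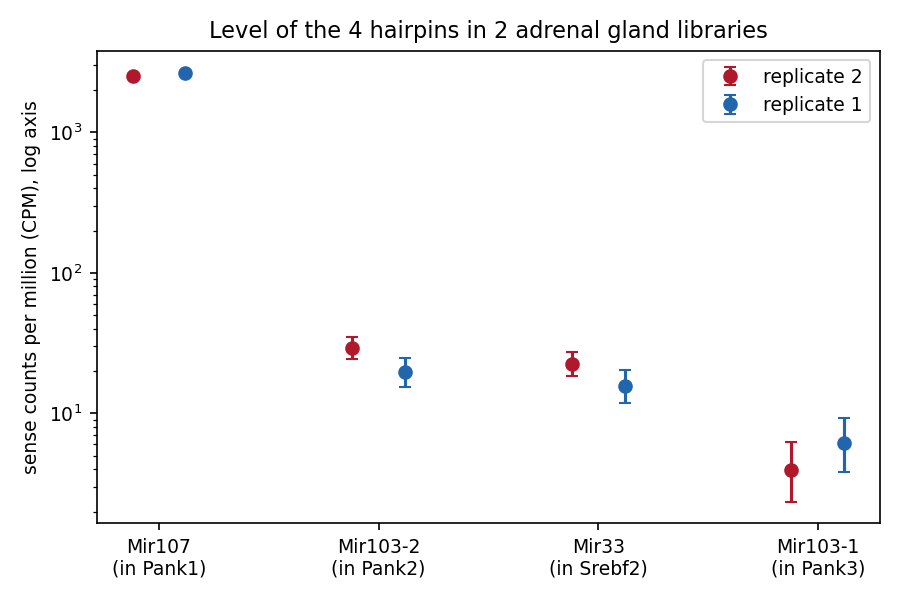
The plot gives the level of each hairpin on a logarithmic CPM axis, with 1 point per library (replicate 2 in red, replicate 1 in blue) and exact 95% intervals for counting error. Mir107 stands at 2525 and 2630 CPM, above the other hairpins, which lie between 3.96 and 29.3 CPM.

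The antisense column was at 0 for all 4 hairpins in both libraries, so sense and either-strand counts were the same. For Mir107 a count of 0 allowed an antisense share of up to 0.0262% in replicate 2 and 0.0318% in replicate 1. At Mir103-1, with few counts, it allowed up to 16.7% and 13.6%.

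Ratios of counts within a library do not depend on the library total, and they gave the order Mir107, Mir103-2, Mir33, Mir103-1 in both libraries. Mir107 had 112-fold the counts of Mir33 in replicate 2 (92.5 to 138) and 169-fold in replicate 1 (129.7 to 223). Per base of hairpin, where Mir33 with 69 bases is the shortest, these ratios were 89.2 and 133.7. Mir107 had 86.2-fold the counts of Mir103-2 in replicate 2 (72.7 to 103) and 133-fold in replicate 1 (105 to 170.3). Against Mir103-1 the ratio was 637 in replicate 2 (403 to 1075) and 429 in replicate 1 (283 to 685).

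Mir103-2, next above Mir33 in that order, had more counts in both libraries, though the interval of the ratio reached 1.00 in each. Mir103-2 had 1.30 times the counts of Mir33 in replicate 2 (1.00 to 1.70) and 1.27 times in replicate 1 (0.881 to 1.83). On the scale of CPM per 100 bases of hairpin the levels were 28.5 ± 7.81 for Mir103-2 and 27.6 ± 7.02 for Mir33 (SD, n = 2). Both exceeded Mir103-1, which had 5.87 ± 1.78 CPM per 100 bases. Within the pair with the same mature 3p sequence, Mir103-2 had 7.39 times the counts of Mir103-1 in replicate 2 (4.50 to 12.9) and 3.23 times in replicate 1 (1.98 to 5.47). Reads inside the common run are in neither count, so these ratios do not give the share of miR-103-3p made from each.

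Of the counts on the 3 Pank hairpins, Mir107 held 98.7% in replicate 2 (98.5 to 98.9) and 99.0% in replicate 1 (98.8 to 99.2). The Mir103 pair held the remaining 151 and 93 counts. In the same libraries 2781545 and 2734873 reads mapped to several places and were assigned to no gene. The level of miR-103-3p itself is not measured by these tables, since its whole sequence is common to both hairpins.

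The Mir103 pair belongs to 94 hairpins with a RefSeq mature sequence that another hairpin carries unchanged, a comparison added after the values were seen. Of these 94, 48 were detected, with a median of 34.7 CPM among the detected. Of the 924 hairpins for which no such copy was found, which include Mir33 and Mir107, 270 were detected, with a median of 153 CPM. Over all hairpins, detected or not, the order was the other way, with medians of 4.16 CPM for the 94 and 0.249 CPM for the 924. Mature sequences were matched by symbol for 1018 of the 2202 genes, and no test was made. A copy in a hairpin without a RefSeq mature sequence was not seen, so part of the 924 may have one.

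Reads of replicate 2 and replicate 1 were compared with an exact binomial test (two-sided), with Benjamini-Hochberg adjustment over the 352 detected genes. The test sets library against library, since no conditions exist to compare. It counts each read as an independent molecule, so its p-values and calls weigh counting error alone and are too small where reads are PCR copies. The test called 67% of the genes at an adjusted p under 0.05, with 30.4% higher and 36.6% lower in replicate 2, and it called 3 of the 4 hairpins. A share so near that of all genes is no result about them. Mir103-2 was 1.48-fold higher in replicate 2 (1.10 to 2.00, adjusted p = 0.0119 in the exact test). Mir33 was 1.44-fold higher (1.03 to 2.03, adjusted p = 0.0462). This call was lost with no count minimum (adjusted p = 0.0880) and with either-strand counts (adjusted p = 0.0562). The either-strand counts of Mir33 equal its sense counts, so in that setting only the totals and the genes tested differed. Mir107 was lower in replicate 2 at 0.960 of its replicate 1 level (0.934 to 0.987, adjusted p = 0.00605). Mir103-1 stood at 0.646 (0.327 to 1.26, adjusted p = 0.265), which is not distinguishable from 1 at 18 and 22 counts.

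The direction of Mir107 depended on the library total, in which Mir122 weighed far more in replicate 2. With Mir122 left out of the totals Mir107 was 1.20-fold higher in replicate 2 (1.16 to 1.23, exact test, adjusted p = 2.7e-37). Under these totals Mir33 was 1.79-fold higher (1.28 to 2.53, exact test, adjusted p = 0.000705) and Mir103-2 was 1.84-fold higher (1.37 to 2.49, adjusted p = 4.3e-05). Mir103-1 stood at 0.805 (0.407 to 1.57, exact test, adjusted p = 0.592). The background of these totals was 49.9% of 351 genes called higher and 21.4% called lower in replicate 2.

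The change of total moved the median log2 ratio of all detected genes by 0.30. Relative to that median, the log2 ratio of Mir107 was -0.02 with the sense totals and -0.01 with Mir122 out of them. That of Mir33 was 0.54 under both, that of Mir103-2 was 0.58 under both, and that of Mir103-1 was -0.48 and -0.53. A change of total shifts all genes alike, apart from the pseudocount, so likeness between the totals was fixed in advance and is no support. These values say only that Mir107 lay at the median gene, with Mir33 and Mir103-2 above it.

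**Figure D3:**
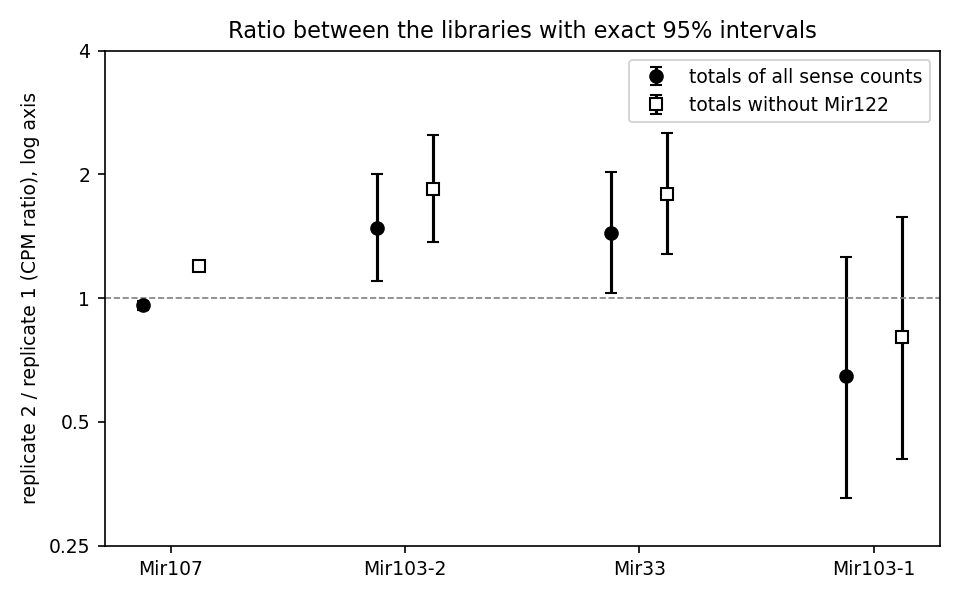
The plot shows the ratio of replicate 2 over replicate 1 for each hairpin on a logarithmic axis, with exact 95% intervals, for the sense totals (filled circles) and for totals without Mir122 (open squares). Mir107 crosses from 0.960 to 1.20 with the change of total, Mir103-2 and Mir33 lie above 1 under both, and the intervals of Mir103-1 span 1.

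Hairpins in introns of other genes give the range in which the 4 can be read. Of 793 hairpins annotated as intronic on their host's strand, 127 (16%) were detected, against 16% of all microRNA genes. All 4 of Mir33, Mir103-1, Mir103-2 and Mir107 were among the 127. The detected intronic hairpins had a median of 144 CPM, with an interquartile range of 25.4 to 885 CPM. Per hairpin, Mir107 was rank 19, above that range, while Mir103-2 at rank 96, Mir33 at rank 100 and Mir103-1 at rank 120 lay below it. Mir103-2, at 24.5 CPM ± 6.72 (SD, n = 2), was below the range by less than its SD. Reads common to the Mir103 pair are in neither count, so their ranks do not give how much microRNA each makes.

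**Figure D4:**
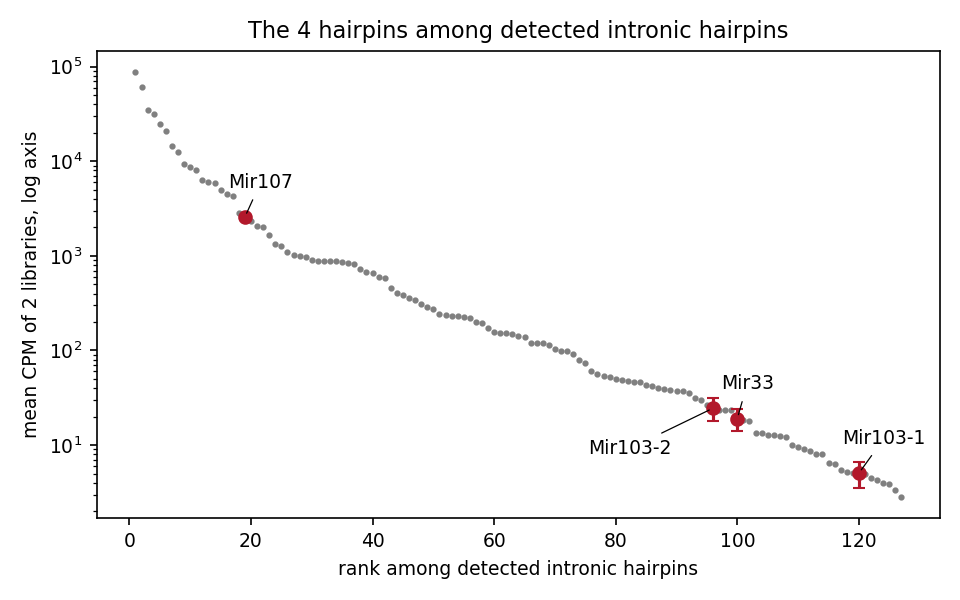
The plot orders the 127 detected intronic hairpins by mean CPM of the 2 libraries, on a logarithmic axis, with the 4 hairpins in red and bars for the SD over the libraries. Mir107 is at rank 19, and Mir103-2, Mir33 and Mir103-1 are at ranks 96, 100 and 120.

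The genes nearest to each hairpin in level were taken by Euclidean distance over log2(CPM + 1) in the 2 libraries, 3 for each. For Mir33 they were Mir29b-1, at 23.1 CPM in replicate 2 and 17.3 CPM in replicate 1 (distance 0.144), then Mir1983 and Mir1968. Mir29b-1 shares at least 20 bases with another hairpin, and Mir33 does not. For Mir107 they were Mir382 of the imprinted Dlk1-Dio3 region, at 2408 and 2713 CPM in replicates 2 and 1 (distance 0.0820), then Mir100 and Mir28a. Those of Mir103-2 were Mir1941, Mir294 and Mir383, and those of Mir103-1 were Mir7689, Mir291a and Mir1224. With 2 libraries, such likeness says only that the levels were close.

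Mir33 was set beside 20 other hairpins studied for cholesterol handling, through Abca1, through Scarb1, which takes up cholesterol esters from lipoproteins, or through related genes. This list was chosen with earlier results of these data known. By mean level Mir33 was rank 17 of these 21 per hairpin and rank 17 per 100 bases of hairpin. The top of the list was Mir26b, at 23636 CPM in replicate 2 and 39259 CPM in replicate 1, and Mir10b, at 10544 and 31262 CPM. Mir27b stood at 4548 and 4565 CPM in replicates 2 and 1.

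Among the hairpins reported to repress Scarb1, Mir125a reached 5781 CPM in replicate 2, against 3093 CPM in replicate 1, and Mir455 had 1588 and 928 CPM. Both were called higher in replicate 2, at 1.87-fold (1.83 to 1.91) for Mir125a and 1.71-fold (1.64 to 1.78) for Mir455 (exact test). Mir96, another of them, had 14.3 and 11.1 CPM, close to Mir33, and its difference between the libraries was not called with the sense totals (exact binomial test, adjusted p = 0.310). With Mir122 out of the totals it was called 1.60-fold higher in replicate 2 (exact binomial test, adjusted p = 0.0274). Mir223, a leukocyte hairpin also reported for Scarb1, was called lower, with 105 CPM in replicate 2 and 255 CPM in replicate 1. The 4 leukocyte markers summed to 1077 CPM in replicate 2 and 2280 CPM in replicate 1, and their part in the level of Mir223 was not tested.

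Of the 21 hairpins 19 were detected, all but Mir301b and Mir758, and 7 had a stretch of 20 or more bases in common with some other hairpin. The exact test called 6 of the 19 higher and 10 lower in replicate 2, where it called 30.4% of all detected genes higher and 36.6% lower. With Mir122 out of the totals it called 10 higher and 8 lower, where 49.9% of all genes were called higher and 21.4% lower. Their median log2 ratio was -0.11, beside -0.04 for all detected genes.

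**Figure D5:**
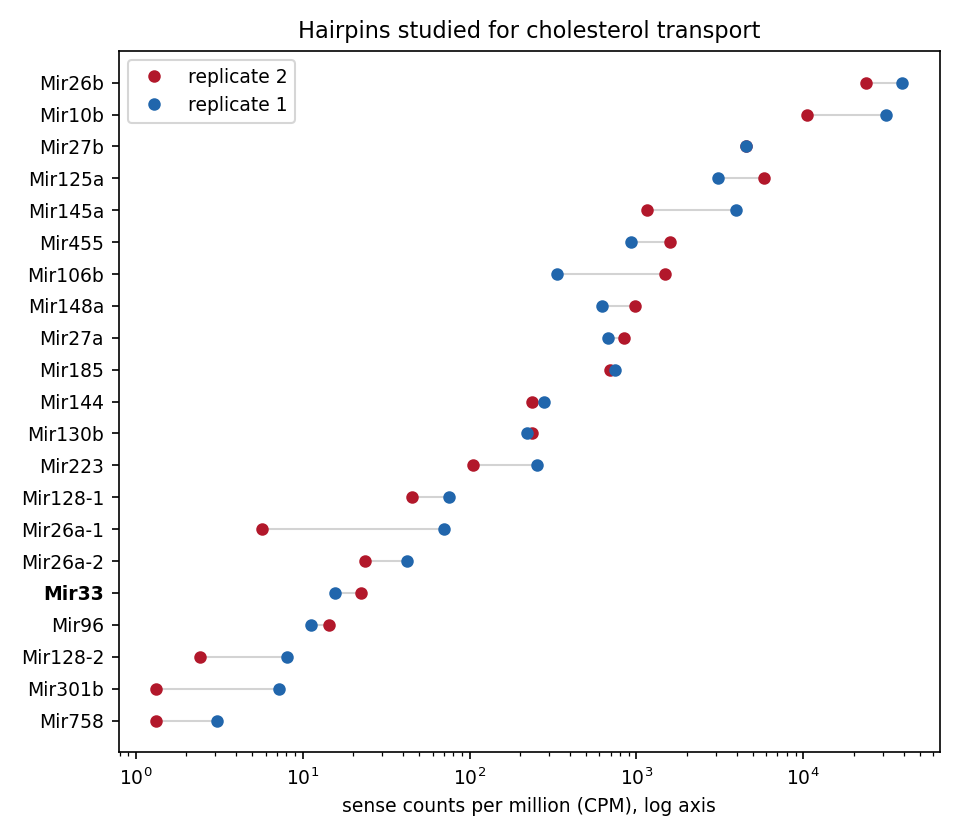
The plot gives the level of the 21 hairpins studied for cholesterol transport on a logarithmic CPM axis, with replicate 2 in red and replicate 1 in blue, ordered by mean level. Mir33, in bold, lies at rank 17 of 21, and the points of Mir27b coincide.

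The Pank hairpins share the letters AGCAGC near the 5′ end with the miR-15/16 group, which is known for repressing cell cycle genes. The sequences are shown to set the register side by side, with those letters in capitals.
mmu-miR-107-3p: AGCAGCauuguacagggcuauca
mmu-miR-103-3p: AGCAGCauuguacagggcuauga
mmu-miR-322-5p: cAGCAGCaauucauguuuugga
mmu-miR-15a-5p: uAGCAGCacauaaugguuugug
mmu-miR-16-5p: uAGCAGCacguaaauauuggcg
The letters start at base 1 in miR-107-3p and miR-103-3p, and at base 2 in the others, so the seeds are shifted by 1 base. Only these 2 of 1679 RefSeq mature sequences (0.119%) start with AGCAGC, and 11 (0.655%) hold it from base 2, read on the mature strand.

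Mir107 was rank 2 in level among the 9 hairpins of this kind that were found by name, both per hairpin and per 100 bases. Mir322 was higher, at 19003 CPM in replicate 2 and 28629 CPM in replicate 1. Mir15a, with 2910 CPM in replicate 2 and 1178 CPM in replicate 1, lay above Mir107 in replicate 2 and below it in replicate 1. Mir16-1, whose mature sequence Mir16-2 carries too, had 715 and 1087 CPM. All 9 were detected, and 5 of them, among them Mir107 and the Mir103 pair, had such a stretch too. The exact test called 3 of the 9 higher and 4 lower in replicate 2, beside 30.4% and 36.6% of all detected genes. With Mir122 out of the totals it called 5 higher and 3 lower, beside 49.9% and 21.4%. Shares so near those of all genes are no result about the list. The median log2 ratio was -0.06, beside -0.04 for all detected genes.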

How the data were processed

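For each of the 2 libraries the authors deposited raw, unnormalised read counts by microRNA gene, on assembly mm10 per the labels and with annotation GENCODE M21 per notes deposited beside the tables. The library protocol is a multiplexed microRNA one, per the labels. The aligner and counter were not given in the sources used here. The 3 count columns hold either-strand, sense and antisense reads, as their totals show. The first 4 lines (unmapped, mapped to several places, outside genes, ambiguous) name no gene and were left out of the totals. In each column these lines and the gene rows sum to the same input, so each read was counted once.

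Identifiers of all 2202 genes were found in GENCODE M21, whose positions, introns and transcripts were used, and RefSeq supplied printed sequences (GRCm38.p6). A genome sequence was not used here, so shared windows of 20 bases were sought in transcripts only. Detection required 10 sense counts in each library. A pseudocount of 1 CPM was added before log2 ratios were taken. The binomial test was tried on simulated counts that hold counting error alone, as the test assumes, so its fit to these libraries was not tested. The 4 members and the lists were chosen with earlier results of these data known. Named genes were chiefly the members, the 3 genes nearest in level to each, and list members. Name matching found no Mir497a, Mir7a-1 or Mir7a-2, so these were left out of the lists. Genes annotated as Mir497, Mir7-1 and Mir7-2 were detected, at mean levels of 757, 312 and 60 CPM. The exact test called Mir497 and Mir7-2 higher and Mir7-1 lower in replicate 2. Whether these are the same hairpins was not tested, and no sum, call or median of a list includes them. Alternatives were edgeR 4.0.16 and DESeq2 1.42.0 scaling, other totals, count minimums of 5 and 20 and none, pseudocounts of 0.1 and 10 CPM, and windows of 18, 22 and 23 bases. Computation used Python 3.11.15, scipy 1.17.1 and R 4.3.3.

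Lists for red blood cell, endothelium, smooth muscle and stroma, and fat markers summed to 1248, 60799, 33037 and 58763 CPM in replicate 2, and to 1487, 62826, 49800 and 62527 CPM in replicate 1.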

Additional observations from a re-analysis of the deposited data

How the results depend on the processing

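Of 117 alternative values for 25 results, 103 kept their direction, their side of the threshold or, within the spread between replicates, their value. Part of the 103 could not have come out otherwise. A level with either replicate left out always lies within the SD around the mean of both. A pseudocount does not enter the exact test and cannot turn the sign of a log2 ratio. Count ratios between members repeat with either-strand counts, because the members have the same counts in both columns. Such values say nothing of how stable the results are. The log2 ratio of Mir107, -0.06 with the sense totals, reversed with Mir122 out of the totals (0.26) and with all input reads as the total (0.034), and its call was lost with DESeq2 size factors (-0.018). The counts of Mir107 were the same in these settings, and only the totals differed. Why the libraries differ in their totals was not tested. Mir33 kept its direction and lost its call at 0.48 with either-strand counts and at 0.50 with no count minimum, where more genes enter the adjustment.

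Scaled to all input reads, a larger total, mean levels were 8.19 CPM for Mir33, 2.14 CPM for Mir103-1, 10.6 CPM for Mir103-2 and 1102 CPM for Mir107. Mir107 averaged 2890 CPM with Mir122 out of the totals and 3066 CPM with either-strand counts. Its own counts are the same in that column, but the either-strand totals are smaller. Counts missing there include those of hairpins with an opposite-strand partner, such as Mir378a, with 0 either-strand and 223736 sense counts in replicate 1. Without hairpins that share 20 bases Mir33 was rank 68 of 88 intronic hairpins, since fewer were ranked. Windows of 23 bases left 10.9% of Mir103-2 shared, and windows of 18 bases 24.3% of Mir107. With a count minimum of 20 Mir103-1 dropped out of the test. With either replicate left out, levels ran from 2525 to 2630 CPM for Mir107, 19.8 to 29.3 for Mir103-2, 15.6 to 22.5 for Mir33 and 3.96 to 6.13 for Mir103-1.

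Genes called ran from 223 of 309 tested with a count minimum of 20 to 250 of 351 with Mir122 out of the totals. With no count minimum 245 of 749 were called, so the share of tested genes called depended on the minimum. The share of calls higher in replicate 2 was 45.3% with the sense totals and 70% with Mir122 out of the totals. No paired analysis was possible because there is 1 group. Depth limits Mir103-1, at 18 and 22 counts.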
